A study of Homo sapiens with 120 samples.

Results

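The data described here are 9 gene expression arrays of TK6 cells treated with colcemid for 24 h, out of 120 arrays in the series. They were chosen by their titles: 3 arrays of the highest labelled dose were set directly against 3 of the lowest, with 3 of the middle dose as the point between, over all genes. The question was whether the response at 24 h was already complete at the lowest dose, grew with dose or turned back. TK6 is an established human lymphoblastoid line, that is, immortalized B lymphocytes. The study compared formaldehyde, the alkylating agents methyl methanesulfonate and ethyl methanesulfonate, and the tubulin binders colcemid and vincristine, each at 3 doses and at 4 h and 24 h beside untreated cells of its own set. Each of its 40 groups held 3 arrays, numbered by the labels as experiments 1 to 3, of total RNA from whole cultures. The treatment labels give the colcemid doses as 1, 2 and 4 µg/ml, while the titles write them with leading zeros, which does not settle whether a decimal point was lost, so they are called the lowest, middle and highest dose below. The arrays used for comparison are the 3 untreated arrays of the colcemid set at 24 h, the colcemid arrays at 4 h, and the vincristine arrays, whose labels carry the same dose figures.

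Colcemid (demecolcine) binds the tubulin dimer, the building block of microtubules, and keeps spindles from forming, so that cells stop in mitosis under the spindle checkpoint. Cells that are held there or slip out without dividing can switch on the tumour suppressor p53, whose targets stop the cell cycle or promote cell death. Tubulin messengers are known to be destroyed when free tubulin dimers accumulate. Genes of mitosis are transcribed late in the cell cycle and are repressed in cells whose cycle p53 has stopped.

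All values below are log2 signals per gene, a difference of 1 on this scale is a factor of 2, and changes are given with SE, the standard error of the model, from 3 arrays in each group. A gene was called when its adjusted p in limma, a linear model fitted across 14017 genes and 24 colcemid arrays, was under 0.05. Nothing in the labels says how the experiments were separated, so p-values measure only the spread between these arrays. Array medians of the 9 arrays lay between 6.176 and 6.23, and their pairwise correlations over all probe sets between 0.99579 and 0.99815. The spread within the highest dose was the smallest of the 4 groups at 24 h (median SD over genes 0.0533, against 0.0792 at the lowest dose). B cell markers were bright on all 9 arrays (MS4A1, the gene of CD20, 12.2 to 12.7, and CD79A, a B cell receptor chain, 8.93 to 9.18), while CD14 of monocytes (5.13 to 5.41) and EPCAM of epithelium (3.41 to 3.68) were dim. Not every marker of other cells was dim: COL1A1 of fibroblasts lay at 8.36 to 8.66 and CD3D of T cells at 6.33 to 6.63. The mean signal of the T and NK cell markers ran from 6.27 to 6.41 at the lowest and from 6.26 to 6.43 at the highest dose, that of the monocyte and granulocyte markers from 5.70 to 5.78 and from 5.77 to 5.80, and that of the epithelial and fibroblast markers from 6.16 to 6.30 and from 6.22 to 6.26. None of their tested members (10, 3 and 7) was called between the highest and the lowest dose. The gap between 3' and 5' ACTB probe sets, a sign of RNA integrity, averaged 0.548 ± 0.0357 (SD, n = 3) at the lowest dose and 0.512 ± 0.0224 at the highest. That of GAPDH moved the other way, from 0.150 ± 0.00896 at the lowest to 0.158 ± 0.0108 at the highest dose. The part of these gaps in the results was not tested. Where a count in a gene list was 5 or fewer, members outside the rule for named genes were named after their values were seen: FAS, BAX, CDK1, UBE2C, CDCA3, NUSAP1, CCNB2, AURKA, PTTG1, CCNE1, CDK6, E2F1, CDKN2D, H1-4, NFKBIE, CD48, CD58, MX2, IRF9, SDC1, HSPA5, ATF4, ATF5, TRIB3, MTHFD2, NQO1, MT2A, BIRC2, BAD, CASP9, CAPZA1 and FERMT2. CENPA was named for its promoter.

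At 24 h the transcriptome differed between the highest and the lowest dose, mostly by small amounts. Of 14017 genes 1917 were called, which is 13.7% of those tested. The highest dose was above the lowest for 1144 of them (8.16%) and below it for 773 (5.51%). Few changes were large: 25 called genes were at least 1.5-fold higher and 28 at least 1.5-fold lower, and 3 each way reached 2-fold. ANTXR2, RRAD and IFFO2 rose most, and ERICH3, TNFRSF17 and TP53I3 fell most. ERICH3 fell into dim signals and ANTXR2 rose from dim signals, so the sizes of their changes and their ranks are not exact. The 3 arrays of the highest dose lay wholly above or below those of the lowest for 4018 genes (28.7% of all tested), and for 1876 of the 1917 called. In bulk RNA of this kind fewer cells in a state and less RNA per cell cannot be told apart. The count depended on the number of arrays and on single experiments: it was 545 without experiment 1, 985 without experiment 2 and 809 without experiment 3, and the share of higher genes among the called moved from 59.7% to 44% and 68.4% without experiments 1 and 2. Single arrays moved the split too: without the lowest-dose array of experiment 1 there were 673 higher and 704 lower, 1454 and 528 without that of experiment 2, 718 and 593 without that of experiment 3, and 760 and 524 without the highest-dose array of experiment 1.

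More genes were called between the middle and the highest dose than between the lowest and the middle. The first step, from the lowest to the middle dose, had 29 called genes (0.207%), 14 higher and 15 lower, with 940 genes at an unadjusted p under 0.05. The second step, from the middle to the highest dose, had 964 (6.88%), 620 higher (4.42%) and 344 lower (2.45%). Among the genes called higher over the whole range the median first step was 0.05 and the median second step 0.17. Among those called lower the medians were -0.08 and -0.16. The second step made up 71.9% of the whole change in the median gene, and 17 genes were called in both steps. For 1670 of the 1917 both steps went the same way, and for 247 the middle dose lay outside the range of the other doses. Since genes were picked for the whole change, these step medians are a description without a test. With experiment as a block in the model the steps had 63 and 1637 called genes. The first step had 1, 2 and 0 called genes without experiments 1, 2 and 3, 17 without the lowest-dose array of experiment 1 and 13 without that of experiment 3. The second had 140, 230 and 315 without experiments 1, 2 and 3, and 537 and 615 without the highest-dose array of experiment 1 or 3. Repeating quantile normalization lowered the share of higher genes in the second step from 64.3% to 52.6%.

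**Figure D1:**
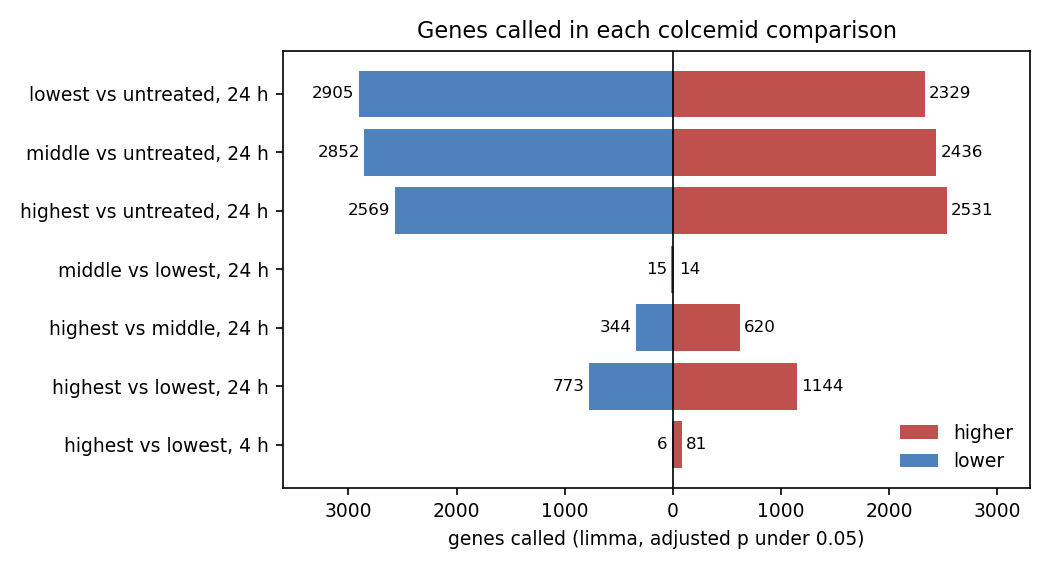
Number of genes called higher (right, red) and lower (left, blue) in each comparison of the colcemid set by limma at an adjusted p under 0.05, of 14017 tested. Each dose differed from untreated cells at 24 h for 5100 to 5288 genes, the first dose step had 29 called genes, the second 964, and the dose step at 4 h 87.

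The distance to untreated cells was about as wide at every dose. Against the 3 untreated arrays 5234 genes (37.3%) were called at the lowest dose (16.6% higher and 20.7% lower). At the middle dose 5288 (37.7%) were called (17.4% higher and 20.3% lower) and at the highest 5100 (36.4%; 18.1% higher and 18.3% lower). Genes at least 1.5-fold higher numbered 409, 400 and 370, and those at least 1.5-fold lower 194, 276 and 200. The dose step moved many genes back towards the untreated level. Of the 1144 genes called higher at the highest than at the lowest dose, 340 were called below untreated cells at the lowest dose and not called at the highest, 213 were below at both, and 18 were below at the lowest and above at the highest. Another 223 were above untreated cells at both doses, 260 were called above at the highest dose and not called at the lowest, and 90 were called at neither. Of the 773 genes called lower, 227 stayed above untreated cells at both doses, 164 were above at the lowest and not called at the highest, 169 were called below at the highest and not at the lowest, 139 were below at both, 61 were called at neither, and 13 went from above to below. These counts use the same dose arrays as the step itself and describe it without a test.

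A second sorting shared no arrays between the choice of genes and the dose step. Genes were taken as responsive where the middle dose differed from untreated cells with a call and by at least 1.5-fold, which gave 676 genes, 400 higher and 276 lower. They were then sorted by the highest minus the lowest dose, whose arrays had no part in the choice. The response was flat for 375 (55.5%), meaning that the step was not called and its 95% interval lay within -0.5 to 0.5. Flat in this sense does not exclude a smaller step, as the median size of a called step was 0.23. It shrank, with a called step back towards the untreated level, for 174 (25.7%), and it grew for 98 (14.5%). The remaining 29 (4.29%) could not be placed. Over all genes 13.7% had a called step, as given above. Among the 400 raised genes 121 shrank (30.2%) and 69 grew (17.2%), and among the 276 lowered ones 53 shrank (19.2%) and 29 grew (10.5%). Across genes the middle-dose response and the dose step had a Pearson correlation of -0.12 over all 14017 genes and of -0.13 over the 676, and genes are not independent replicates. The number that shrank was 83 without experiment 1, 93 without experiment 2 and 99 without experiment 3, and the number that grew 50 without experiment 1 and 61 without experiment 3.

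The genes that rose most with dose were a surface receptor, a small GTPase and a filament gene. ANTXR2, a cell surface receptor for matrix proteins and for anthrax toxin, lay at 6.30, 6.30 and 6.33 at the lowest dose, at 6.93, 6.65 and 6.77 at the middle dose and at 7.62, 7.71 and 7.83 at the highest, against 6.02, 5.91 and 5.92 on the untreated arrays. Each dose stood clear of the next, and the highest was 2.66-fold above the lowest, a difference of 1.41 (SE 0.084, limma adjusted p = 1.95e-09). Its untreated arrays lay below the brightness filter of 6.186 and its lowest-dose arrays just above it, so the size of the rise is not exact. Its other probe sets were dimmer than the filter allows. RRAD, a small GTPase related to Ras, lay at 7.73, 8.04 and 7.55 at the lowest dose, at 8.24, 8.52 and 8.39 at the middle dose and at 8.87, 9.11 and 8.88 at the highest, with 6.48, 6.35 and 6.60 untreated. Its lowest and highest arrays were far apart and its difference was 1.18 (SE 0.1, limma adjusted p = 2.9e-07), a factor of 2.26. IFFO2, an orphan member of the intermediate filament family, lay at 7.39, 7.36 and 7.36 at the lowest dose, at 7.89, 8.11 and 7.94 at the middle dose and at 8.55, 8.46 and 8.34 at the highest. It rose by 1.08 (SE 0.073, limma adjusted p = 9.84e-09) and, like RRAD, was called in both steps (0.61 and 0.47 for IFFO2, 0.61 and 0.57 for RRAD). LMNA, which encodes the nuclear lamins A and C, lay at 9.72, 10.06 and 9.79 at the lowest dose, at 10.30, 10.39 and 10.29 at the middle dose and at 10.61, 10.84 and 10.74 at the highest, a difference of 0.87 (SE 0.077, limma adjusted p = 3.07e-07). CD69, an early activation marker of lymphocytes, lay at 8.55, 8.90 and 8.62 at the lowest dose, at 8.77, 9.01 and 8.93 at the middle dose and at 9.56, 9.55 and 9.44 at the highest. Its first step of 0.21 was not called (limma adjusted p = 0.643) and its second step of 0.61 was. A difference between its steps was not called in the test of a bend at the middle dose given below.

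The other leading genes rose by less. PBXIP1, which binds PBX transcription factors, rose by 0.92, ANXA1, a calcium-dependent phospholipid-binding protein, by 0.81, and KLF6, a zinc finger transcription factor, by 0.79. TSC22D3, a leucine zipper protein induced by glucocorticoids, rose by 0.78, CD55, which protects cells from complement, by 0.77, and the cytokine IL6 by 0.68. The antisense transcript RUSC1-AS1 rose by 0.68 (SE 0.18, limma adjusted p = 0.0145), with a wider error than the others. All of them but RUSC1-AS1 were also called above untreated cells at the middle dose, so their response grew with dose. RUSC1-AS1 lay at 9.17, 9.18 and 8.97 untreated, at 9.13, 9.05 and 8.89 at the middle and at 9.71, 9.64 and 9.47 at the highest dose. ANTXR2, IFFO2, RRAD and KLF6 were known from earlier work on these arrays to respond more to colcemid than to vincristine, so that their place here is not independent of it.

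**Figure D2:**
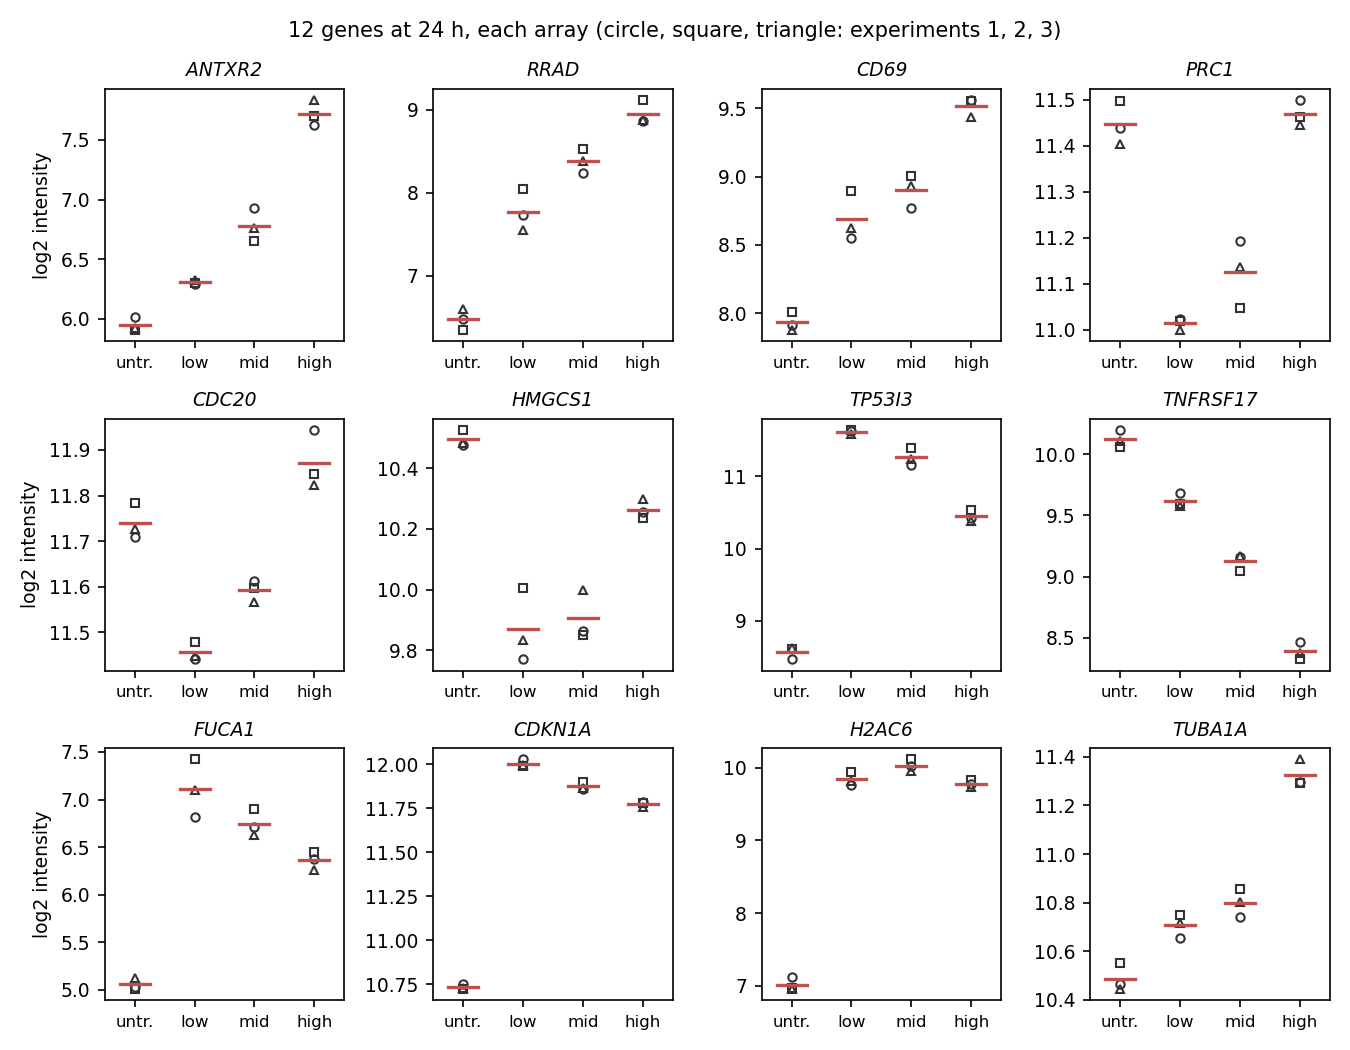
Log2 signal of 12 genes on each array at 24 h (circle, square and triangle for experiments 1, 2 and 3, red bar for the mean of 3) in untreated cells and at the lowest, middle and highest colcemid dose, with an axis range of its own for each gene. ANTXR2, RRAD and CD69 climb with dose, TP53I3, FUCA1 and CDKN1A turn back from their level at the lowest dose, PRC1, CDC20 and HMGCS1 return towards or past the untreated level, TNFRSF17 falls throughout, and the doses of H2AC6 overlap.

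Of the genes that fell most, several were strongly raised by colcemid and less so at the highest dose. TP53I3, a p53-induced oxidoreductase, lay at 8.47, 8.62 and 8.62 untreated and at 11.62, 11.64 and 11.58 at the lowest dose, at 11.15, 11.39 and 11.24 at the middle dose and at 10.43, 10.53 and 10.38 at the highest. Every treated array stood above the untreated ones, and the doses followed one another downwards without overlap, with a difference of -1.17 (SE 0.062, limma adjusted p = 4.76e-10). FUCA1, a lysosomal fucosidase, lay at 5.03, 5.01 and 5.12 untreated and at 6.82, 7.42 and 7.10 at the lowest dose, at 6.72, 6.90 and 6.63 at the middle dose and at 6.38, 6.44 and 6.26 at the highest. It fell by 0.75 on the log2 scale (limma adjusted p = 0.000675), with the widest spread at the lowest dose. The cornified envelope gene LCE1B (-0.86), the sulfatase SULF2 (-0.83), the choline transporter-like gene SLC44A5 (-0.79) and PXT1 (-0.76) had the same shape, above untreated cells at the middle dose and lower at the highest. MAD1L1, a spindle checkpoint protein, was also raised at the middle dose (1.00) and fell by 0.89 from the lowest to the highest dose.

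Other falls went further from the untreated level. TNFRSF17, the receptor BCMA of plasma cells, lay at 10.20, 10.06 and 10.11 untreated and at 9.68, 9.59 and 9.58 at the lowest dose, at 9.16, 9.04 and 9.17 at the middle dose and at 8.47, 8.32 and 8.38 at the highest. No dose overlapped another, and the difference between highest and lowest was -1.23 (SE 0.066, limma adjusted p = 4.76e-10), a factor of 2.34. ERICH3 lay at 6.34, 6.33 and 6.50 untreated and at 6.01, 6.19 and 6.01 at the lowest dose, at 5.50, 5.87 and 5.97 at the middle dose and at 4.92, 4.75 and 4.82 at the highest, which is below the brightness filter of 6.186 on all 6 arrays of the upper doses. EOMES, a T-box transcription factor, lay at 8.21, 8.27 and 8.26 at the lowest dose, at 8.22, 8.21 and 8.21 at the middle dose and at 7.42, 7.69 and 7.40 at the highest. Its first step was -0.04 (limma adjusted p = 0.999) and its second -0.71 (SE 0.055, limma adjusted p = 4.64e-07), so the level held and then dropped. HBD, the delta globin gene, fell by 0.88 and the antisense transcript MAP3K5-AS2 by 0.95. For MAP3K5-AS2 both steps were called (-0.41 and -0.54).

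The p53 targets as a group were induced at every dose and less at the highest. Of 36 tested members 27 fell between the lowest and the highest dose (75%, against 5.51% of all genes), 1 rose and 8 were not called. Their median change was -0.25, against 0.01 over all genes. Against untreated cells 34 of the 36 were called higher at the lowest dose, 34 at the middle and 33 at the highest, none lower. Over all genes 16.6%, 17.4% and 18.1% were called higher. The median rise of the targets was 0.80, 0.72 and 0.52. In the second step 18 targets were called lower (against 2.45% of all genes) and in the first 1 (against 0.107%). The same list had been studied on these arrays before, so its direction is not independent evidence. The member that rose, FAS, a death receptor (0.16), was not called without experiment 1 or without experiment 3.

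Single members show the turn on every array. CDKN1A, the p21 inhibitor of cyclin-dependent kinases, lay at 10.75, 10.72 and 10.73 untreated and at 12.03, 11.99 and 11.99 at the lowest dose, at 11.86, 11.90 and 11.86 at the middle dose and at 11.78, 11.78 and 11.76 at the highest. The highest-dose arrays all lay below the lowest-dose arrays and far above the untreated ones, with a difference of -0.23 (SE 0.042, limma adjusted p = 0.000868). MDM2, the ligase that removes p53, lay at 11.40, 11.17 and 11.27 untreated and at 12.68, 12.74 and 12.74 at the lowest dose, at 12.56, 12.55 and 12.64 at the middle dose and at 12.28, 12.21 and 12.29 at the highest. It fell by 0.47 (limma adjusted p = 9.11e-06), and 1 of its 8 bright probe sets had the opposite sign. TP53INP1, a p53-induced nuclear protein linked to cell death, fell by 0.62, PIDD1, a scaffold for caspase activation, by 0.56 and RRM2B, a ribonucleotide reductase subunit, by 0.55. GDF15, a stress cytokine, lay at 10.24, 10.48 and 10.19 at the lowest, 9.96, 10.09 and 9.97 at the middle and 10.05, 10.04 and 10.04 at the highest dose. Its difference was -0.26 (SE 0.081, limma adjusted p = 0.0361), with -0.30 in the first step and 0.04 in the second, neither of them called, and its middle and highest doses overlapped. APAF1, the adaptor of the apoptosome, changed by -0.29 (SE 0.061, limma adjusted p = 0.00246), and the stress sensor SESN2 by -0.34 (SE 0.082, limma adjusted p = 0.00761).

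Mitosis genes moved the other way: lowered by the lowest dose, they came back at the highest. Of 36 tested members 27 rose between the lowest and the highest dose (75%, against 8.16% of all genes). Another 4 fell (11.1%, against 5.51%) and 5 were not called, with a median of 0.29. Against untreated cells 32 were called lower at the lowest dose, 29 at the middle and 16 at the highest, where 5 were called higher. Over all genes 20.7%, 20.3% and 18.3% were called lower, and 18.1% higher at the highest dose. The median distance of the mitosis genes was -0.40, -0.35 and -0.08. The 5 called higher there were CCNB1 (0.42), CCNB2 (0.40), NEK2 (0.30), the anaphase inhibitor PTTG1 (0.28) and the kinase AURKA (0.15). The second step had 25 members called higher (against 4.42% of all genes). The first had 2 lower, CDK1 and UBE2C (against 0.107% of all genes), and none higher. PRC1, which bundles the microtubules of the central spindle, lay at 11.44, 11.50 and 11.40 untreated and at 11.02, 11.02 and 11.0003 at the lowest dose, at 11.19, 11.05 and 11.14 at the middle dose and at 11.50, 11.46 and 11.45 at the highest. Its highest-dose arrays were level with the untreated ones, and its difference was 0.45 (SE 0.053, limma adjusted p = 8.01e-06). CDC20, the activator of the anaphase-promoting complex, lay at 11.71, 11.78 and 11.73 untreated and at 11.44, 11.48 and 11.45 at the lowest dose, at 11.61, 11.60 and 11.57 at the middle dose and at 11.94, 11.85 and 11.82 at the highest. All highest-dose arrays stood above the untreated ones, though that difference of 0.13 was not called (limma adjusted p = 0.0764). CCNB1, the mitotic cyclin B1, lay at 11.91, 11.88 and 11.90 untreated and at 11.81, 11.86 and 11.81 at the lowest dose, at 11.98, 11.94 and 12.04 at the middle dose and at 12.35, 12.28 and 12.33 at the highest. It rose by 0.50 (SE 0.051, limma adjusted p = 2.39e-06), from just below the untreated level to above it.

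NEK2, a kinase of centrosome separation, rose by 0.51, KIF14, a kinesin of cytokinesis, by 0.49, and the polo-like kinase PLK1 by 0.29 (SE 0.068, limma adjusted p = 0.00595). The 4 members that fell were CDK1, the kinase of cyclin B (-0.41), UBE2C, an ubiquitin-conjugating enzyme of anaphase (-0.22), CDCA3 (-0.18) and NUSAP1, a spindle protein (-0.12). Without experiment 1 the counts were 17 higher and 2 lower, and the 4 falls were 1 without experiment 3 and 2 without the lowest-dose array of experiment 3. Among 29 genes of the spindle checkpoint and kinetochore, 8 of them also in the mitosis list, 17 rose and 2 fell (median 0.23). These are shares of 58.6% and 6.9%, against 8.16% and 5.51% of all genes. NUF2, a subunit of the NDC80 complex that links kinetochores to microtubules, lay at 10.34, 10.32 and 10.32 at the lowest, 10.32, 10.29 and 10.41 at the middle and 10.73, 10.78 and 10.74 at the highest dose. The members that fell were MAD1L1 and BUB3, a checkpoint protein that lay at 12.53, 12.44 and 12.51 at the lowest dose, at 12.31, 12.27 and 12.41 at the middle dose and at 12.08, 11.97 and 12.14 at the highest. BUB3 changed by -0.43 (SE 0.049, limma adjusted p = 6.31e-06). Without experiment 1, 6 members were called higher.

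Promoters of mitosis genes are known to carry the cell cycle homology element, with the core TTTGAA, often near CCAAT boxes bound by NF-Y, and the following stretches are shown because these genes rose together with dose. RefSeq promoter windows (build GRCh38.p14, 300 bases, from 250 before to 50 after the gene's start) were at hand for 30 of the 36 mitosis genes. The 4 stretches are the 100 bases upstream of the start, 5′ to 3′ on the gene's strand, of the called mitosis genes with the largest rise that hold TTTGAA there. Capitals mark TTTGAA or its reverse complement TTCAAA, and CCAAT or its reverse complement ATTGG, which share no overlap within these stretches.
PRC1: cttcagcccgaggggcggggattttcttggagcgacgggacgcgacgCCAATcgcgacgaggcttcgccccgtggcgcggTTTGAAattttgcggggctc
CDC20: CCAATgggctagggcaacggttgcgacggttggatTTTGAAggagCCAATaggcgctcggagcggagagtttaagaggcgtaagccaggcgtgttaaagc
CENPA: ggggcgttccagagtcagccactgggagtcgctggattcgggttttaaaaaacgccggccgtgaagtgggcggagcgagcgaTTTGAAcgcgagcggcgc
CCNB2: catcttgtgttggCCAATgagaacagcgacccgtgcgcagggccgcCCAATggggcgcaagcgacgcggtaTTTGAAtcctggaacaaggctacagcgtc
They lie at chr15:90994536-90994635, minus strand, at chr1:43358881-43358980, plus strand, at chr2:26785956-26786055, plus strand and at chr15:59105046-59105145, plus strand. CENPA, the histone variant of centromeres, and CCNB2, cyclin B2, rose by 0.41 and 0.40. On either strand of the 300 bases TTTGAA occurred in 18 of the 30 mitosis promoters (60%) and in 15.4% of all 27305 promoters of the table, and CCAAT in 25 (83.3%) against 35.7%. Among the genes tested that had a window, the shares were 10.6% and 36.3%. TTTGAA stood in 12 of the 22 mitosis promoters whose genes rose (54.5%) and in all 3 of those whose genes fell. It occurred in 1 of 27 promoters of p53 targets (3.7%) and 1 of 30 of replication genes (3.33%). A match is a description of letters and says nothing on binding.

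**Figure D3:**
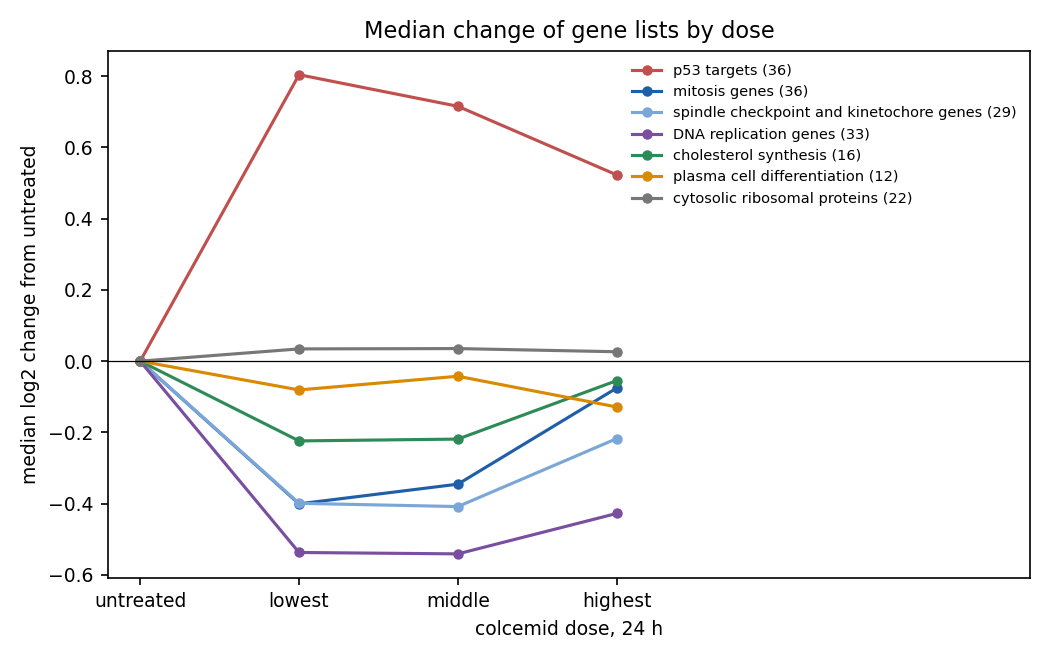
Median log2 change from untreated cells over the tested members of 7 gene lists (number tested in brackets) at the lowest, middle and highest colcemid dose at 24 h, with untreated cells at 0. The p53 targets stand at 0.80, 0.72 and 0.52, the mitosis genes at -0.40, -0.35 and -0.08, and the ribosomal protein genes near 0.

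Replication genes stayed below untreated cells at every dose. Of 33 tested members 32 were called below untreated cells at the lowest dose, 32 at the middle and 31 at the highest (medians -0.54, -0.54 and -0.43). Over all genes the shares called below were 20.7%, 20.3% and 18.3%. The dose step was called for 11, all higher (33.3%, against 8.16% of all genes), with a list median of 0.05. POLE2, a subunit of DNA polymerase epsilon, lay at 10.33, 10.33 and 10.33 untreated and at 9.49, 9.56 and 9.54 at the lowest dose, at 9.62, 9.54 and 9.68 at the middle dose and at 9.80, 9.81 and 9.80 at the highest. Its difference was 0.27 (SE 0.046, limma adjusted p = 0.000393), and the highest-dose arrays remained well below the untreated ones. CDT1, a replication licensing factor, rose by 0.25, MCM10 by 0.21 and ORC6 of the origin recognition complex by 0.20. The called number was 2, 7 and 4 without experiments 1, 2 and 3, and 7 without the lowest-dose array of experiment 1.

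Among 18 E2F factors and G1 cyclins 3 rose (16.7%, against 8.16% of all genes) and 5 fell (27.8%, against 5.51%). Beside the genes given below, E2F1 (0.16) and the inhibitor CDKN2D (0.26) rose, and CCNE1 (-0.26) and CDK6 (-0.15) fell. E2F2, a transcription factor of S phase entry, rose by 0.34 (SE 0.039, limma adjusted p = 6.46e-06) from a lowered level. CCNE2, cyclin E2, lay at 10.99, 10.79 and 10.89 untreated and at 10.24, 10.36 and 10.26 at the lowest dose, at 9.80, 9.90 and 9.91 at the middle dose and at 9.84, 9.85 and 9.94 at the highest. It fell in the first step (-0.41 (SE 0.074, limma adjusted p = 0.0141)) and was level in the second. A bend at the middle dose, tested below, was not called for it. E2F7, a repressor of the same family, fell in the first step too (-0.36, limma adjusted p = 0.00538), with 1 of its 2 bright probe sets of opposite sign for the whole change. RBL2, the pocket protein p130, was raised at the middle dose (0.55) and fell by 0.34.

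Replication-dependent histone genes, whose messengers normally lack a poly(A) tail, were above untreated cells for most members. Of 14 tested members 9 were called above untreated cells at each dose (medians 0.88, 1.04 and 0.83), against 16.6%, 17.4% and 18.1% of all genes. H1-4 was called below at the highest dose (-0.25), as were 18.3% of all genes. The dose step had 1 member higher (7.14%, against 8.16% of all genes) and 2 lower (14.3%, against 5.51%). H2AC6, a histone H2A gene, lay at 7.11, 6.97 and 6.96 untreated and at 9.77, 9.94 and 9.81 at the lowest dose, at 10.03, 10.12 and 9.95 at the middle dose and at 9.77, 9.83 and 9.73 at the highest. The doses overlapped, and the difference of -0.06 had a 95% interval of -0.27 to 0.14. H2BC12, a histone H2B gene, changed by -0.07 (interval -0.20 to 0.07), and its near-copy H2BC12L, which can share its signal, by -0.01. H1-2, a linker histone gene, lay at 10.51, 10.65 and 10.40 at the lowest dose, at 10.61, 10.82 and 10.67 at the middle dose and at 10.04, 10.16 and 9.94 at the highest, highest at the middle dose. It changed by -0.47 (SE 0.084, limma adjusted p = 0.000617), while H4C8 (-0.42, limma adjusted p = 0.0459) and H2BC5 (0.15, limma adjusted p = 0.0456) lay close to the threshold. For H4C8 1 of 2 bright probe sets had the opposite sign (0.16).

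Tubulin genes, the targets of the drug, split. Of 13 tested members 7 were called below untreated cells at each dose (against 20.7%, 20.3% and 18.3% of all genes). Above them were 2, TUBA1A and TUBB2A (against 16.6%, 17.4% and 18.1% of all genes). The dose step had 2 higher (15.4%, against 8.16% of all genes) and 3 lower (23.1%, against 5.51%). TUBB, the main beta tubulin, lay at 13.37, 13.41 and 13.36 untreated and at 12.55, 12.57 and 12.56 at the lowest dose, at 12.41, 12.43 and 12.45 at the middle dose and at 12.35, 12.29 and 12.30 at the highest. It went down again with dose, by 0.24 on the log2 scale (SE 0.032, limma adjusted p = 2.87e-05), and no arrays of the lowest and highest dose overlapped. The alpha tubulins TUBA1C (-0.15) and TUBA1B (-0.10) fell by less, and TUBB4B, a beta tubulin, was not called (-0.09, interval -0.17 to -0.02). TUBA1A, an alpha tubulin close in sequence to those genes, went the other way and lay at 10.47, 10.55 and 10.45 untreated and at 10.65, 10.75 and 10.72 at the lowest dose, at 10.74, 10.85 and 10.80 at the middle dose and at 11.30, 11.29 and 11.39 at the highest. It rose by 0.62 (SE 0.046, limma adjusted p = 3.16e-08), nearly all of it in the second step (0.53 against 0.09 in the first). TUBB2A, a beta tubulin, rose by 0.20 (SE 0.052, limma adjusted p = 0.012). Signals of such close copies may be shared between probe sets. The 2 rises were 1 without experiment 1 or 3, or without the lowest- or highest-dose array of experiment 1, and the 3 falls 1 without experiment 1 or 2. Of 22 genes of tubulin folding and microtubule regulation 3 rose and none fell, a share of 13.6% beside 13.7% of all genes called either way. They were TBCB, a tubulin folding cofactor (0.32), CLIP1, a plus-end protein (0.17), and STMN1, which binds free tubulin (0.13). For CLIP1 1 of 4 bright probe sets had the opposite sign. STMN1 lay at 10.64, 10.66 and 10.65 at the lowest dose, at 10.64, 10.66 and 10.65 at the middle dose and at 10.79, 10.76 and 10.78 at the highest. The mean of its probe sets gave no rise, but it includes a probe set below the brightness filter (mean signal 4.58, change -0.13).

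More cholesterol synthesis genes were called in the second step than in the first. Of 16 tested members 10 rose and none fell (62.5%, against 8.16% of all genes called higher), with a median of 0.20. In the first step none was called (median 0.02) and in the second 8 of 16 (median 0.19), against 4.42% of all genes called higher in that step. None of the 16 was called for a bend at the middle dose (median -0.09), so unequal steps were not shown gene by gene. They had been below untreated cells at the lowest and middle dose (10 and 11 called lower) and 6 were still called lower at the highest. Over all genes 20.7%, 20.3% and 18.3% were called lower than untreated cells. HMGCS1, the first committed synthase of the pathway, lay at 10.48, 10.53 and 10.48 untreated and at 9.77, 10.01 and 9.83 at the lowest dose, at 9.86, 9.85 and 10 at the middle dose and at 10.26, 10.23 and 10.30 at the highest. Its lowest and middle doses overlapped, and the highest stood above both and below the untreated arrays (0.39 (SE 0.063, limma adjusted p = 0.000247)). MSMO1, a sterol oxidase, rose by 0.29, SC5D, a sterol desaturase, by 0.28, and IDI1, an isomerase, by 0.23, with 2 of 4 bright IDI1 probe sets of opposite sign. The count was 2 without experiment 1, 5 without experiment 3 and 6 with the mean of probe sets.

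**Figure D4:**
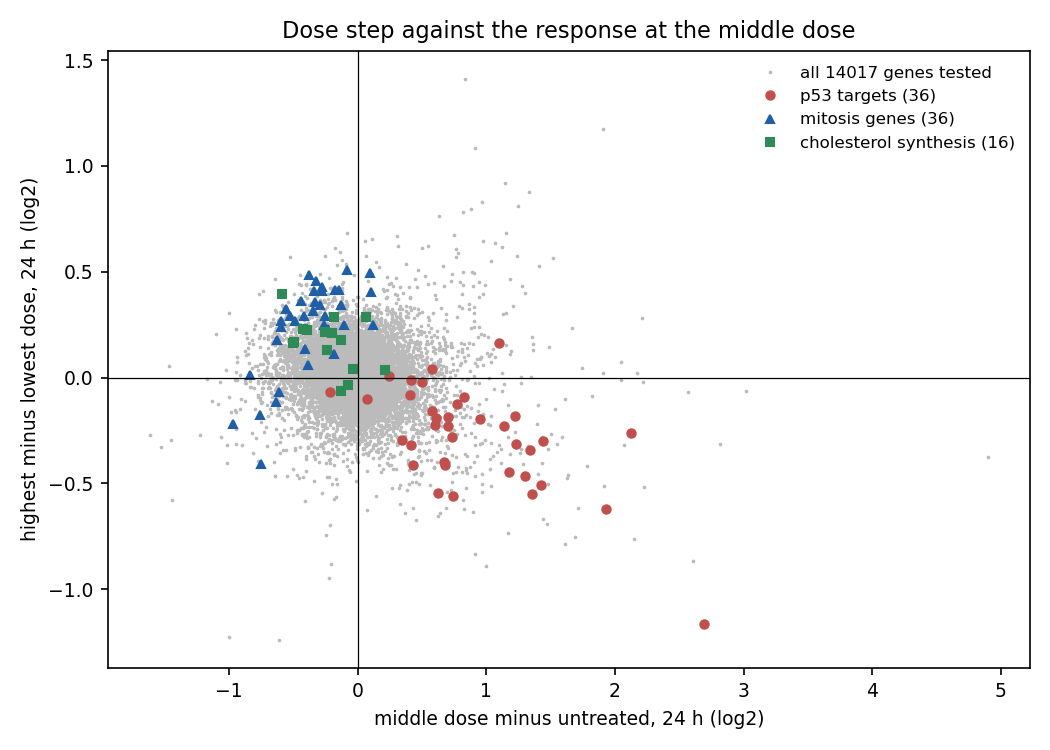
Each point is 1 gene: its middle-dose change from untreated cells at 24 h (x axis, log2) against the highest minus the lowest dose (y axis, log2), which share no arrays. All 14017 tested genes are grey, p53 targets are red circles, mitosis genes blue triangles and cholesterol synthesis genes green squares; most p53 targets lie at the lower right and most mitosis and cholesterol genes at the upper left.

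Among genes of early signalling and inflammation more rose than fell. Of 21 immediate early genes 6 rose (28.6%, against 8.16% of all genes) and none fell. JUN, a subunit of the AP-1 factor, lay at 8.40, 8.68 and 8.44 untreated and at 9.46, 9.38 and 9.34 at the lowest dose, at 9.38, 9.58 and 9.49 at the middle dose and at 10.06, 10.05 and 10.0010 at the highest. The lowest and middle doses overlapped. The whole difference was 0.65 (SE 0.066, limma adjusted p = 2.12e-06) and the second step 0.56. A bend at the middle dose, tested below, was not called for JUN. ATF3, a stress-induced transcription factor, rose by 0.43 with 1 of 3 probe sets of opposite sign, the phosphatase DUSP1 by 0.31 and IER3 by 0.30. Without experiment 1, 3 members were called. Of 24 NF-kappaB targets 7 rose (29.2%) and 1 fell (4.17%, against 5.51% of all genes). Above untreated cells 22, 23 and 23 were called at the 3 doses, against 16.6%, 17.4% and 18.1% of all genes. TNF, the tumour necrosis factor, lay at 8.91, 9.16 and 8.98 at the lowest dose, at 9.17, 9.30 and 9.14 at the middle dose and at 9.67, 9.72 and 9.68 at the highest. Its difference was 0.67 (SE 0.075, limma adjusted p = 5.1e-06), and the cytokine LTA (0.39), the NF-kappaB subunit REL (0.32) and IL6 also rose. The count of 7 was 2 without experiment 1 and 3 without experiment 3, and the fall of NFKBIE, an inhibitor of NF-kappaB (-0.18), was not called when any one of the 3 experiments was left out. With experiment as a block 2 of these targets were lower and 1 immediate early gene.

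Of 18 genes of lymphocyte activation and adhesion 6 rose (33.3%, against 8.16% of all genes) and 3 fell (16.7%, against 5.51%). CD44, a hyaluronan receptor, rose by 0.45, and TNFRSF9, the co-stimulatory receptor 4-1BB, by 0.38. The integrin gene ITGAM fell by 0.46 from a raised level, with 1 of 2 bright probe sets of opposite sign, and the adhesion genes CD48 (-0.13) and CD58 (-0.13) were the others. Of 24 interferon response genes 1, MX2 (0.18), rose (4.17%) and 5 fell (20.8%; median -0.12), IRF9 (-0.25) among them, and with experiment as a block 3 rose. IFIT3, an interferon-induced antiviral protein, lay at 9.72, 9.83 and 9.81 untreated and at 10.97, 10.99 and 10.91 at the lowest dose, at 10.82, 10.80 and 10.82 at the middle dose and at 10.55, 10.62 and 10.55 at the highest, a difference of -0.38 (SE 0.052, limma adjusted p = 4.41e-05). ISG15, an ubiquitin-like protein (-0.33), the transcription factor IRF7 (-0.31) and the RNA sensor OAS1 (-0.28) had most of their fall in the first step (-0.31, -0.33 and -0.30, none of them called). The 5 falls were 1 without experiment 1 or 2 and 3 without the lowest-dose array of experiment 1.

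Of 12 tested genes of plasma cell differentiation 7 fell (58.3%, against 5.51% of all genes), none rose and 5 were not called, with a median of -0.16. Beside TNFRSF17 these were IGHM, the heavy chain of immunoglobulin M, which lay at 11.68, 11.60 and 11.37 untreated and at 10.53, 10.31 and 10.21 at the lowest dose, at 10.25, 10.11 and 9.95 at the middle dose and at 10.03, 9.66 and 9.63 at the highest. It changed by -0.58 (SE 0.14, limma adjusted p = 0.00842), with 1 of 5 bright probe sets of opposite sign. PRDM1, the plasma cell factor BLIMP1, was above untreated cells at the middle dose (0.25) and fell by 0.41, the elongation factor ELL2 by 0.24 (1 of 3 bright probe sets of opposite sign) and SDC1, the plasma cell marker CD138, by 0.22. The count was 3, 2 and 3 without experiments 1, 2 and 3, and 4 without the lowest-dose array of experiment 1. The mean signal of the 13 listed genes ranged from 8.80 to 8.86 at the lowest and from 8.53 to 8.60 at the highest dose. B cell identity genes were balanced, with 2 of 19 higher (10.5%, against 8.16% of all genes) and 2 lower (10.5%, against 5.51%). EBF1, a B lineage factor (0.25), and CD40 (0.13, with 1 of 4 bright probe sets of opposite sign) rose. FCRLA (-0.27) and the coactivator POU2AF1 (-0.18) fell. Of 4 tested red cell markers 2 fell (50%, against 5.51% of all genes), HBD and the beta globin gene HBB (-0.30). HBB lay at 8.53, 8.32 and 8.48 at the lowest and 8.19, 8.09 and 8.14 at the highest dose.

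Beside shares of 8.16% higher and 5.51% lower over all genes, the stress lists had these counts. Of 20 genes of the unfolded protein response 5 rose and none fell, namely CRELD2 (0.25), MANF (0.23), ATF6 (0.26), HERPUD1 (0.12) and HSPA5 (0.10). All encode proteins of the endoplasmic reticulum, and 1 of 4 bright ATF6 probe sets had the opposite sign. Of 29 genes of the ATF4 and amino acid response 5 rose and 3 fell, with CEBPG, a partner of ATF4, at 0.34, STC2 at 0.24, TRIB3 at 0.20, and ATF4 and ATF5 at 0.18 and 0.18. The serine synthesis enzyme PSAT1 (-0.21), MTHFD2 (-0.12) and SESN2 fell. NRF2 and thiol defence had 4 of 18 higher and 1 lower. That 1 was HMOX1, heme oxygenase, which lay at 9.07, 9.21 and 9.13 at the lowest dose, at 8.75, 8.85 and 8.87 at the middle dose and at 8.58, 8.61 and 8.69 at the highest and changed by -0.51 (SE 0.054, limma adjusted p = 3.2e-06). SRXN1 (0.19), SQSTM1 (0.18, with 1 of 4 bright probe sets of opposite sign), NQO1 (0.11) and TALDO1 (0.13) rose. Metallothionein genes had 4 of 8 higher and 1 lower, with MT1E, MT1X and MT2A at 0.15, 0.15 and 0.13. Their regulator MTF1 stood at 0.25, with 1 of 3 bright probe sets of opposite sign, and the zinc exporter SLC30A1 at -0.24. Heat shock genes were near the shares of all genes (11.1% higher and 5.56% lower), with 2 of 18 higher, BAG3 (0.19) and HSPE1 (0.09), and 1 lower, HSPA4L (-0.19).

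Of 21 apoptosis regulators 4 rose and 4 fell (19% each way, against 8.16% higher and 5.51% lower of all genes). MCL1, a survival protein of the BCL2 family, rose by 0.28 (SE 0.034, limma adjusted p = 1.22e-05). DIABLO, which blocks inhibitors of caspases, lay at 10.68, 10.63 and 10.65 untreated and at 10.56, 10.58 and 10.57 at the lowest dose, at 10.50, 10.48 and 10.44 at the middle dose and at 10.18, 10.21 and 10.23 at the highest. Its doses did not overlap, and it fell by 0.36 (limma adjusted p = 2.9e-07). The inflammatory caspase gene CASP1 fell by 0.37 from a raised level. CASP9 (0.23), BAD (0.21) and BIRC2 (0.17) also rose, and APAF1 and BAX (-0.23) also fell. Hypoxia and glycolysis genes were near the shares of all genes (7.69% each way), with 2 of 26 higher, the enolase ENO2 (0.19) and the phosphofructokinase PFKL (0.23), and 2 lower, the kinase PDK1 (-0.31) and the mitophagy receptor BNIP3L (-0.34). Of 14 genes responding to SRF, YAP or actin 3 rose (21.4%, against 8.16% of all genes) and 2 fell (14.3%, against 5.51%). KLF6, the actin-binding TAGLN2 (0.41) and SRF itself (0.26) were higher, and FHL2 (-0.23) and CAPZA1 (-0.11) lower. For SRF 1 of 2 bright probe sets had the opposite sign (-0.02). Of 27 subunits of oxidative phosphorylation NDUFB8 (-0.11) and NDUFB5 (-0.09) were lower (7.41%, near the 5.51% of all genes). None of 22 cytosolic ribosomal protein genes was called by limma, with a median of -0.01. Of 10 housekeeping genes 1 was called, YWHAZ (0.14), a share of 10% beside 13.7% of all genes called either way. GAPDH lay at 14.23, 14.21 and 14.20 at the lowest and 14.23, 14.21 and 14.20 at the highest dose, and ACTB changed by 0.07 (interval 0.01 to 0.13).

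The genes that responded most at the middle dose were mostly flat or had shrunk at the highest. CYP4F3, a cytochrome P450 of leukotriene breakdown, lay at 4.38, 4.55 and 4.80 untreated and at 9.25, 9.36 and 9.16 at the lowest dose, at 9.29, 9.59 and 9.55 at the middle dose and at 8.65, 9.17 and 8.83 at the highest. Its untreated arrays were below the brightness filter of 6.186, so no exact rise is given, and the highest dose was below the lowest by 0.38 (limma adjusted p = 0.0312), with 1 array overlapping. CYP4F2, a near-copy that may share signal, changed by -0.31 and FAM13C by -0.52. The chemokine CXCL11, also dimmer than the filter in untreated cells, was flat, with a dose step of -0.02 (interval -0.23 to 0.18). Among genes lowered most at the middle dose, WDR76, which binds chromatin, was flat (0.05, interval -0.10 to 0.21). IMPA2 (0.00, interval -0.19 to 0.18) and the helicase BRIP1 (-0.11, interval -0.24 to 0.02) were flat too. The peptide hormone gene APELA met the same limits (-0.27, interval -0.50 to -0.04), but its interval left out 0, so a plateau is not shown. Its treated levels lay below the filter. FBXO5, an inhibitor of the anaphase-promoting complex, fell further by 0.30 and MTFR2 by 0.27. MIR210HG (-0.33, interval -0.58 to -0.08), also below the filter when treated, could not be placed.

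A bend at the middle dose was called for few genes. The level at the middle dose minus the mean of the lowest and highest was called for 8 genes (0.0571%), 3 high (0.0214%) and 5 low (0.0357%), with 1065 at an unadjusted p under 0.05. The high ones were H1-2 (0.42), EOMES (0.34) and H2BC12L (0.32). The low ones were TUBA1A (-0.22), CDT1 (-0.21), NUF2 (-0.20), SLC9D1 (-0.22) and FERMT2 (-0.16). No tested p53 target, mitosis gene or cholesterol synthesis gene was among the 8. H2BC12L shows a peak, since it lay at 10.81, 10.82 and 10.62 at the lowest dose, at 11.04, 11.05 and 11.09 at the middle dose and at 10.80, 10.77 and 10.64 at the highest, and its lowest and highest doses overlapped. CDT1 lay at 9.83, 9.94 and 9.91 at the lowest, 9.75, 9.80 and 9.89 at the middle and 10.13, 10.13 and 10.16 at the highest dose, so that its lowest and middle doses overlapped and the highest stood above both. For most genes, then, unequal steps were not called one by one: the number was 35 with experiment as a block, 65 with quantile normalization repeated, 13 with the mean of probe sets, 1 without the brightness filter and 0 with 12 arrays at 24 h alone. Leaving out experiments 1, 2 and 3 gave 0, 1 and 0, and leaving out single arrays of the lowest or highest dose 1 to 14.

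After 4 h the dose step was narrower and almost all upwards. The highest differed from the lowest dose for 87 genes (0.621%), 81 higher (0.578%) and 6 lower (0.0428%). Of these 87, 56 were called in the same direction at 24 h (64.4% of the 4 h list and 2.92% of the 24 h list), 6 in the opposite one and 25 were not called there. Against untreated cells at 4 h limma called 0 genes at the lowest dose (265 at an unadjusted p under 0.05), 9 at the middle (0.0642%, of which 3 or 0.0214% higher and 6 or 0.0428% lower) and 128 at the highest (0.913%). ANTXR2 lay at 6.02, 6.17 and 6.22 at the lowest and 7.15, 7.14 and 6.83 at the highest dose at 4 h, a step of 0.90 (SE 0.084, limma adjusted p = 3.27e-06). It started close to or below the brightness filter, so the size of this step is not exact. CD69 lay at 7.40, 7.71 and 7.37 and 8.46, 8.42 and 8.54, a step of 0.98, and KLF6 at 10.35, 10.35 and 10.26 and 11.23, 11.26 and 11.33, a step of 0.95. In these and in IFFO2 (1.05) the doses did not overlap at 4 h. TP53I3, by contrast, lay at 8.98, 9.03 and 8.84 and 8.93, 8.99 and 8.96.

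The difference between the steps at 24 h and 4 h was called for 383 genes (2.73%), more positive at 24 h in 142 (1.01%) and more negative in 241 (1.72%), and for 366 of the 1917. It was called for 20 of 36 p53 targets, all lower at 24 h, and at 4 h limma called 1 of them between doses, FAS (0.21). It was called for 18 of 36 mitosis genes, 16 higher and 2 lower (CDK1 and UBE2C), and at 4 h limma called 0 of them between doses. The differences were -1.18 for TP53I3 (limma adjusted p = 3.92e-07), -0.88 for TNFRSF17, 0.64 for LMNA and 0.46 for CDC20. For CD69 (-0.16, limma adjusted p = 0.704), KLF6 (-0.16, limma adjusted p = 0.408) and IFFO2 (0.03, limma adjusted p = 0.957) it was not called. With experiment as a block the 4 h step had 172 called genes and the difference between times 741. Without experiments 1, 2 and 3 the 4 h step had 13, 23 and 9, and the difference between times 45, 54 and 52. Without the lowest-dose array of experiment 2 it was more positive in 185 genes and more negative in 178, a nearly even split.

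Vincristine, which binds tubulin at another site, gave a dose step of its own at 24 h. Its highest and lowest labelled doses differed for 2336 genes (16.7%), 1419 higher (10.1%) and 917 lower (6.54%). The count was 1016 without experiment 1 (523 higher and 493 lower) and 1268 without experiment 2, and repeating quantile normalization gave 1534 higher and 1439 lower. Colcemid and vincristine steps come from separate arrays. They shared 1138 genes called in the same direction, which is 59.4% of the colcemid and 48.7% of the vincristine list, and 7 called in opposite directions. Doses of the substances are not matched in effect. The p53 targets had 26 of 36 lower with vincristine (median -0.28), the mitosis genes 30 of 36 higher (median 0.32), the cholesterol genes 11 of 16 higher (median 0.28) and the plasma cell genes 5 of 12 lower (median -0.16).

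The difference between the steps themselves was called for 76 genes (0.542%), 60 more positive with colcemid (0.428%) and 16 more negative (0.114%). It was called for FAS among the p53 targets (0.27) and for none of the mitosis genes. ANTXR2 lay on the vincristine arrays at 6.21, 6.19 and 5.96 at the lowest and 5.96, 6.05 and 5.99 at the highest dose, a step of -0.12 (SE 0.082, limma adjusted p = 0.358), and its difference between substances was 1.54 (SE 0.12, limma adjusted p = 3.3e-11). RRAD lay at 6.95, 7.34 and 7.44 and 6.88, 6.82 and 6.57. It fell there by 0.48 while it rose with colcemid, a difference of 1.66 (SE 0.18, limma adjusted p = 1.34e-07). IFFO2 (0.95), ANXA1 (0.85), LMNA (0.84), PBXIP1 (0.81) and TSC22D3 (0.80) also stepped up more with colcemid. KLF6 did not pass this test (0.32, limma adjusted p = 0.139). ANTXR2, RRAD, IFFO2 and KLF6 had been chosen in earlier work on these arrays for leaning to colcemid. Their differences and p-values here describe that choice and are not independent evidence.

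Histone genes parted the substances as well. Of 14 tested members 9 fell with vincristine dose (median -0.54), against 6.54% of all genes. The difference was called for 7, all more positive with colcemid, against 0.428% of all genes. H2AC6 lay on the vincristine arrays at 9.96, 10.06 and 9.87 at the lowest and 8.98, 9.14 and 8.94 at the highest dose, a step of -0.94 against -0.06 with colcemid, and the difference was 0.88 (SE 0.16, limma adjusted p = 0.00145). In the other direction lay N4BP2L1 (-0.61), with 3 of 6 bright probe sets of opposite sign in the colcemid step, the transcription factor FLI1 (-0.47), with 2 of 3, and the receptor GPR132 (-0.45). FLI1 and GPR132 were not called in the colcemid step (-0.05 and 0.10) and rose with vincristine (0.42 and 0.55). With experiment as a block 143 genes were called for the difference, and without experiments 1, 2 and 3 it was 19, 32 and 28. Without the lowest-dose array of experiment 3 it was 49 and without the highest-dose array of experiment 2 it was 50. Without the lowest-dose array of experiment 1, 33 were more positive and 22 more negative.

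**Figure D5:**
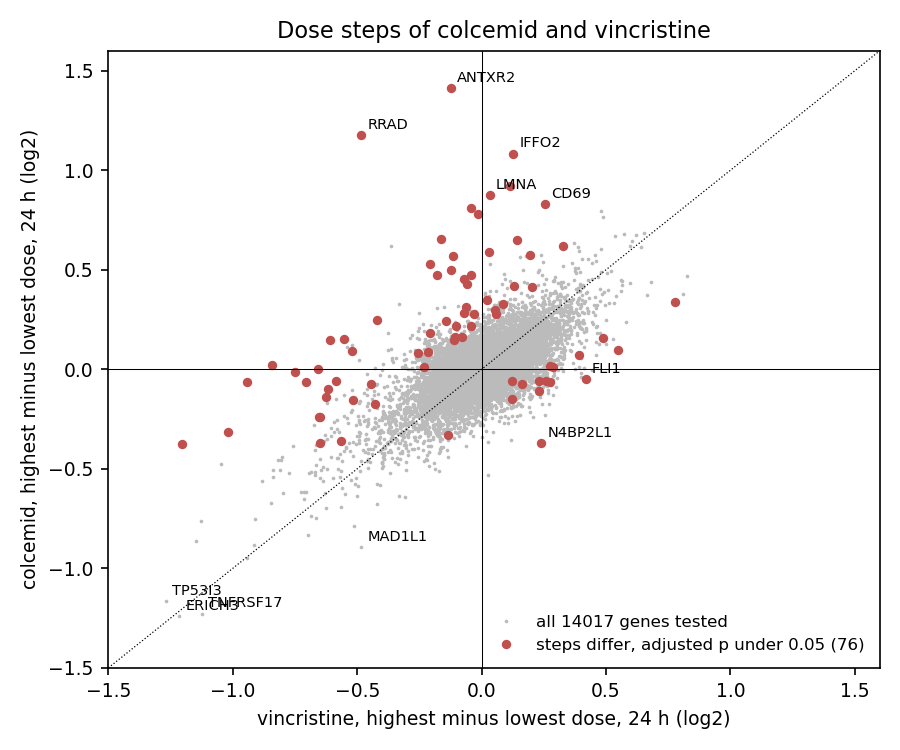
Dose step at 24 h, highest minus lowest labelled dose on the log2 scale, of each of 14017 genes with vincristine (x axis) and colcemid (y axis), from separate arrays. The dotted line marks equal steps, red points the 76 genes whose steps differ by limma at an adjusted p under 0.05, and ANTXR2, RRAD and IFFO2 lie far above the line. These named genes had been chosen in earlier work on these arrays for leaning to colcemid.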

How the data were processed

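The authors deposited log2 expression values per probe set of Affymetrix HG-U133 Plus 2 arrays, computed by RMA according to the submitters' processing notes (per the labels); whether all arrays were normalized together is not given in the sources used here. RMA subtracts background and equalizes arrays, so small changes of dim genes are compressed and a shift of all genes would be hidden. From 54675 probe sets, 41091 naming 1 gene symbol were kept and the brightest stood for its gene; genes reaching 6.186 on at least 3 of the 120 arrays were tested (14017 of 19775). Genes without such a probe set were not analysed here.

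In limma 3.58.1 (R 4.3.3) 8 group means were fitted to the 24 colcemid arrays, without a block, and 16 to the 48 colcemid and vincristine arrays for the comparisons with vincristine. All p-values are two-sided and carry a Benjamini-Hochberg adjustment over all genes, called at an adjusted p under 0.05. Same-numbered arrays were checked for pairing: their deviations correlated at 0.016 to 0.59 (mean 0.236 between lowest and highest dose), and the pairs of experiment 1 with the highest dose stayed under 0.1. The pairing is taken from the labels, which call the numbers experiments, and the fit with experiment as a block is an alternative, as are no filter, the mean of probe sets, repeated quantile normalization, all 120 or 12 arrays in the fit, and leaving out experiments or arrays. Tested on simulated data for the highest minus the lowest dose with 14017 genes, the model recovered 44% of 100 changes of 0.25 and 95% of 100 changes of 0.5. It made 8 false calls (5.442% of its calls). Only these genes were changed, and the noise was independent between arrays, without an effect of experiment. Recovery in the real data, with more genes called, may therefore differ.

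Named genes were the 12 largest called rises and falls with 1 sign in all experiments, up to 4 called members of each list (the 2 with the largest middle-dose change where none was called), 4 each way for the bend at the middle dose, 8 each way at the middle dose, a panel, and 3 each way against vincristine. Members and lists were chosen with earlier results of these data known. Motifs were counted and figures drawn with pandas and matplotlib.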

Additional observations from a re-analysis of the deposited data

Results flagged for a closer look

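For 46 of the 145 genes named by rule the step from the lowest to the highest dose differed between 24 h and 4 h in limma's interaction test at an adjusted p under 0.05. Many of these genes were chosen for their dose step at 24 h, which the test contains, so their number is a description. Each value is the step at 24 h minus the step at 4 h on the log2 scale. It was positive for RRAD (0.65), LMNA (0.64), ANXA1 (0.56), ANTXR2 (0.51), NEK2 (0.51), TUBA1A (0.51), CDC20 (0.46), CCNB1 (0.44), PBXIP1 (0.43), PRC1 (0.40), KIF14 (0.36), NUF2 (0.35), E2F2 (0.35), TAGLN2 (0.34), POLE2 (0.33), TBCB (0.31), TUBB2A (0.29) and CRELD2 (0.27). Mitosis genes (CDC20, CCNB1, NEK2 and PRC1) and the tubulin genes TUBA1A and TUBB2A are among them. It was negative for ERICH3 (-1.34), TP53I3 (-1.18), MAD1L1 (-1.0), SLC44A5 (-0.98), TNFRSF17 (-0.88), HBD (-0.83), TP53INP1 (-0.76), SULF2 (-0.75), FUCA1 (-0.73), MAP3K5-AS2 (-0.69), LCE1B (-0.58), N4BP2L1 (-0.57), PIDD1 (-0.55), HMOX1 (-0.51), RRM2B (-0.51), EOMES (-0.51), APAF1 (-0.46), BNIP3L (-0.46), BUB3 (-0.43), ISG15 (-0.42), MDM2 (-0.42), SLC30A1 (-0.41), CCNE2 (-0.40), DIABLO (-0.35), E2F7 (-0.33), FHL2 (-0.33), RBL2 (-0.32) and PSAT1 (-0.20). The p53 targets TP53I3, TP53INP1, PIDD1, RRM2B, APAF1 and MDM2 are among these.

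For 22 of the 145 genes named by rule the colcemid step differed from the vincristine step at 24 h in a test of the same kind. Some were chosen for this difference and many for the colcemid step, so this number too is a description. The difference, colcemid minus vincristine on the log2 scale, was positive for RRAD (1.66), ANTXR2 (1.54), IFFO2 (0.95), ANXA1 (0.85), LMNA (0.84), CYP4F3 (0.83), PBXIP1 (0.81), TSC22D3 (0.80), CYP4F2 (0.71), H2BC5 (0.71), H2AC6 (0.88), H2BC12L (0.74), H2BC12 (0.64), CD69 (0.57), SLC30A1 (0.41), TUBA1A (0.29), MCL1 (0.22) and TAGLN2 (0.21). It was negative for N4BP2L1 (-0.61), FLI1 (-0.47), GPR132 (-0.45) and BRIP1 (-0.34). CYP4F2 and CYP4F3 are near-copies whose probe sets may share signal, as are H2BC12 and H2BC12L. ERICH3 lay below the brightness filter of 6.186 at the middle and highest dose at 24 h, so its value is not exact. ANTXR2 lay close to or below this filter on the vincristine arrays and close to it at the lowest colcemid dose, so its differences are not exact either. What lies behind these differences was not tested.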

How the results depend on the processing

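Of the named genes called between the highest and the lowest dose, 123 of 123 kept their call with experiment as a replicate block, 112 without the brightness filter, 96 of 121 with the mean of probe sets, 120 with quantile normalization repeated, 115 with all 120 arrays in one fit, 110 with 12 arrays at 24 h, and 68, 87 and 80 without experiments 1, 2 and 3. STMN1 reversed with the mean of probe sets (-0.0027, limma adjusted p = 0.984), which takes in a probe set below the brightness filter.

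Counts that moved by over 1.5 times, with 29, 964, 8, 87, 383 and 76 for the first step, second step, bend, 4 h step, time difference and substance difference, were as follows. With experiment as a replicate block, which changed no dose-step call of a named gene, they were 63, 1637, 35, 172, 741 and 143, and 7 responsive genes were undetermined against 29. With quantile normalization repeated they were 68, 1587, 65, 147, 839 and 176. The mean of probe sets gave 19, 13 and 56 for the first step, bend and 4 h step, with 62 genes that grew and 17 undetermined. No filter gave 1 bend, and 12 arrays at 24 h gave 10 and 0 for the first step and bend. Choosing responsive genes at 2-fold gave 22 that grew, 46 that shrank, 50 flat and 11 undetermined, and choosing them at the highest dose at 4 h gave 10 that grew, 0 that shrank, 1 flat and 2 undetermined.

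With 1 experiment or 1 array left out, called genes ranged from 545 to 1982 for the highest minus the lowest dose, 0 to 30 for the first step, 140 to 1078 for the second, 0 to 14 for the bend, 9 to 94 at 4 h, 45 to 363 for the time difference and 19 to 81 for the substance difference. Against untreated cells they ranged from 3723 to 5185 at the lowest, 3795 to 5429 at the middle and 3661 to 5246 at the highest dose, and for vincristine from 1016 to 2416. Responsive genes ranged from 386 to 474 flat, 50 to 106 grown, 83 to 154 shrunk and 39 to 101 undetermined. Fewer arrays enter these fits. With so few arrays small changes go undetected.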
